A study of Homo sapiens with 40 samples.

Results

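NCIH226 is a human lung cancer line that the labels of the deposited table place among the squamous cell carcinoma lines. The genes described here are all those with values for NCIH226 in the authors' deposited table, 13112 of the 19280 gene IDs that have a value in any of its 10 lines. The tested cells received GSK3368712 and the control cells received the vehicle dimethyl sulfoxide (DMSO), with 2 libraries in each arm. The study treated 10 established non-small cell lung cancer lines in this way and sequenced poly(A) RNA. The other squamous lines are EBC1, LK2, NCIH520, SKMES1 and SW900, and the adenocarcinoma lines are NCIH1563, NCIH1975, NCIH522 and PC9. Each line has its own DMSO libraries, so the lines share no controls. The sample titles carry the tag D5 and the comparison name in the table carries the number 2000 and D5, without a unit or a key, so neither is read here as a dose or a length of exposure, and nothing in them tells whether both libraries in an arm came from 1 culture, so the p-values cover a spread that may be technical. NCIH226 stands for itself alone: it is a single line grown without other cells, and cells of changed number and cells with changed RNA content cannot be told apart in its bulk RNA.

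GSK3368712 inhibits the type I protein arginine methyltransferases, of which PRMT1 does most of the work in cells. These enzymes place asymmetric dimethyl marks on arginines of histones and of RNA-binding proteins, many of them splicing factors with glycine-arginine repeats. Loss of the marks is known to change splicing, translation and transcription, and the compound was developed against tumours that lack MTAP, an enzyme of methionine salvage whose loss lets a natural inhibitor of PRMT5 build up.

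A gene is called listed where the authors' expression filter left it a value, and called higher or lower where the authors' adjusted p was at most 0.05. Fold changes are log2 values of GSK3368712 over DMSO, a direction taken from GSK712 preceding DMSO in the comparison names, since the table does not state it. Means of an arm are normalized read counts computed here from the deposited mean over the 4 libraries and the deposited fold change. They carry no error of their own, and the standard error (SE) beside each fold change is the authors'. Single libraries have no values in this account.

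The markers were divided over the squamous label. The mesothelial markers went against it, as did the lack of a value for both TP63 and SOX2. The count and sum of squamous markers did not. All 12 mesothelial markers were listed in NCIH226, against 0 to 5 in each of the 9 other lines. Expressed as CPM of a line's listed total of mean normalized counts, they summed to 3710 CPM in NCIH226, against 0 to 655 CPM in the other lines. UPK1B, LRRN4, BNC1, ITLN1, KLK11 and PDPN were listed in no other line. CALB2, which encodes the calcium-binding protein calretinin, stood at 861 CPM in NCIH226, MSLN, which encodes the surface protein mesothelin, at 105 CPM, and WT1, a transcription factor of the mesothelium and kidney, at 77.3 CPM. Of 18 squamous markers 5 were listed (KRT5, DSC3, TRIM29, PERP and S100A2), which is within the 4 to 6 of the other squamous lines. Their sum was 290 CPM, within the 148 to 1180 CPM of those lines. KRT5 stood at 70.2 CPM, against 11.2 CPM in LK2, the only other squamous line listing it. DSC3 stood at 131 CPM, against 35.2 CPM in LK2 and 12.2 CPM in NCIH520. PERP at 77.6 CPM and TRIM29 at 6.4 CPM were below all other squamous lines that list them. S100A2 at 5.1 CPM lay among them. NCIH226 was the only squamous line in which neither TP63 nor SOX2, the defining transcription factors of squamous lung carcinoma, was listed. Lacking 1 of them was common: TP63 was also not listed in EBC1, LK2 and NCIH520, and SOX2 not in SKMES1. In EBC1 SOX2 stood at only 2.2 CPM. Of 12 glandular lung markers 2 were listed, KRT7 at 5190 CPM and MUC1 at 5.36 CPM, with NKX2-1, NAPSA and SFTPB not listed. Fibroblast markers were listed in 6 of 12 cases (COL3A1, COL1A1, PDPN, THY1, PDGFRB and POSTN, with DCN and COL1A2 not listed), and summed to 1460 CPM in NCIH226, against 7.06 to 1340 CPM in the other lines. Of the other cell types, 2 of 12 leukocyte markers (CD68 and CORO1A, with PTPRC not listed), 2 of 10 endothelial markers (KDR and EGFL7) and 1 of 10 neuroendocrine markers (SCG2) were listed. The line is therefore called NCIH226 below, with no cell type name.

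**Figure D1:**
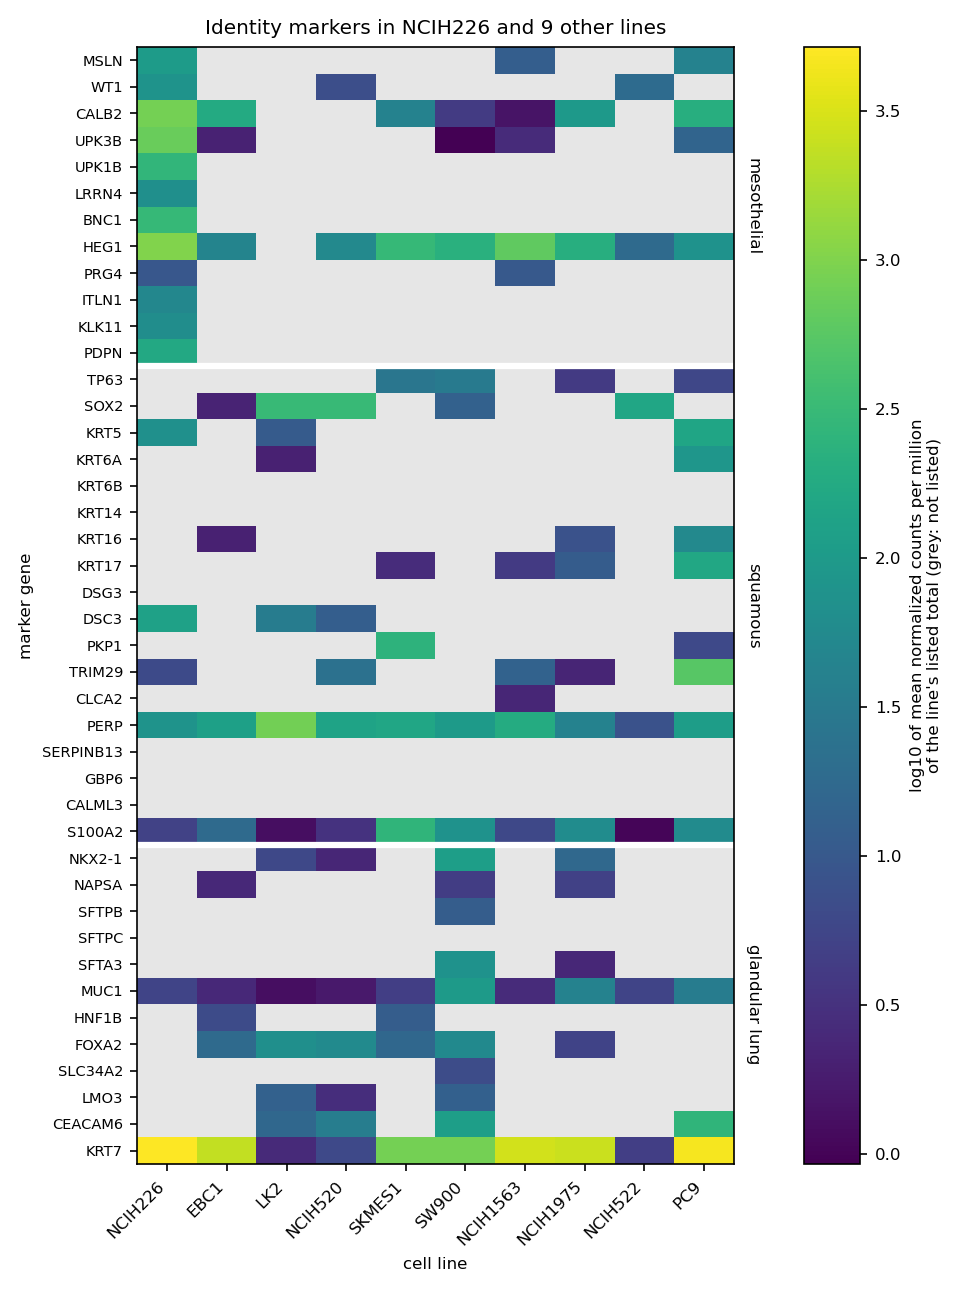
Level of mesothelial, squamous and glandular lung markers (down the page) in NCIH226 and the 9 other lines (across), as the log10 of the CPM of each line's listed total, averaged over both arms by the authors; grey cells are genes not listed. NCIH226 is filled for all 12 mesothelial markers, with no level for TP63 or SOX2.

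MTAP was listed in NCIH226, with means of 1538 normalized counts in GSK3368712 cells and 1518 in DMSO cells. CDKN2A, the tumour suppressor gene next to it, was at 44.1 normalized counts in GSK3368712 cells and 53.3 in DMSO cells and was not called. NF2, which encodes the Hippo pathway tumour suppressor merlin, was not listed.

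The first question was which genes changed in NCIH226. GSK3368712 changed 4099 of 13112 genes (31.3%), with 2027 higher (15.5%) and 2072 lower (15.8%). The deposited mean normalized counts summed to 57647556 over the listed genes, the lowest sum of the 10 lines, and the highest was 108557964 in LK2. Most changes were small: the median absolute fold change of the called genes was 0.505, and 624 genes (4.76%) also passed a fold change of 1, of which 292 were higher and 332 lower. Changes above 2 numbered 57 higher and 37 lower genes. The median fold change of all listed genes was 0.002 and the median SE 0.13. A t distribution of 2 degrees of freedom was also set in place of DESeq2's normal one. After adjustment 0 genes passed, and 1521 had an unadjusted p under 0.05 by that distribution. The calls thus depend on the distribution chosen. The authors' SEs were kept, and DESeq2 already shares the spread across genes in them, so this setting cannot test that sharing. So few degrees of freedom also leave little room to pass an adjustment over 13112 genes. The second question was whether NCIH226 responded differently from the other squamous lines. limma called 0 of 10611 genes (0.0%) for a difference, with 803 at an unadjusted p under 0.05. A Wald test from the authors' SEs, which leaves out the spread between lines, called 1702 of these genes (16.0%). The limma test set a single line against the others and could find only large differences. Its result therefore does not show that the lines responded alike. No gene below is called particular to NCIH226, and values of other lines are given as a description.

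**Figure D2:**
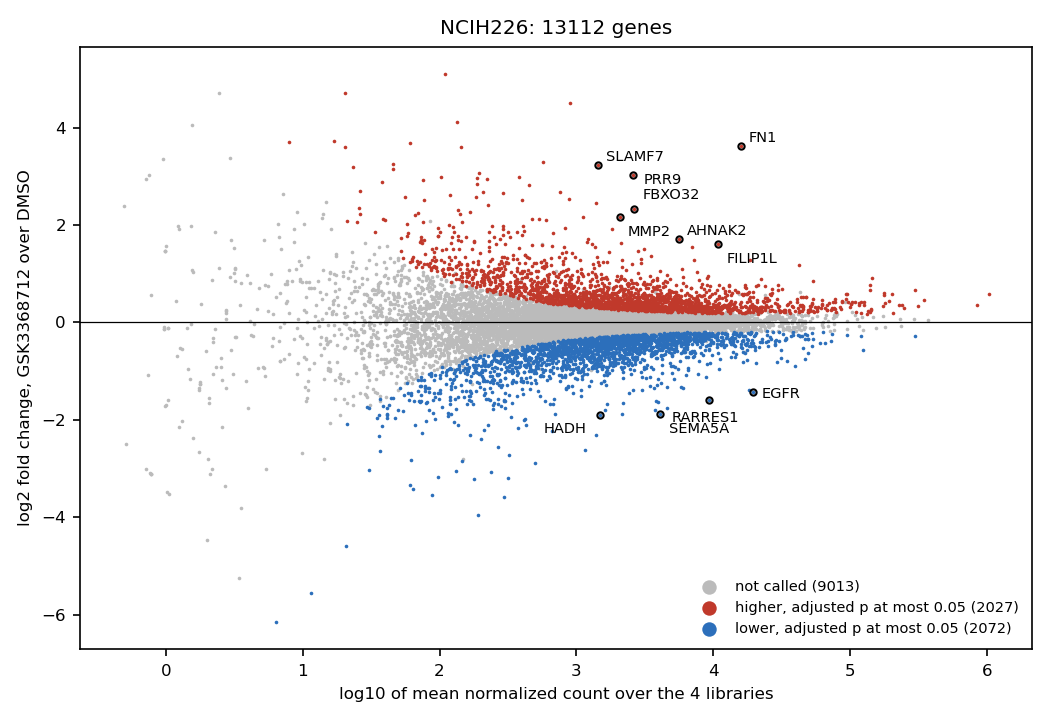
Log2 fold change of GSK3368712 over DMSO (vertical) against the log10 of the mean normalized count over the 4 libraries (horizontal) for the 13112 genes listed in NCIH226. Red points are the 2027 genes called higher, blue points the 2072 called lower and grey points the rest; circles mark 11 genes named in the text.

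FN1 had the largest rise of the genes above median expression. FN1 encodes fibronectin, a glycoprotein of the extracellular matrix that cells bind through integrins, and lies at chr2:215360440-215436172 on the minus strand of GRCh38. Its mean was 29308 normalized counts in GSK3368712 cells and 2387 in DMSO cells, a 12.3-fold difference. In the authors' deposited table this is a log2 fold change of 3.62 (SE 0.116, DESeq2 adjusted p = 6.67e-210). The same table gives FN1 fold changes between -0.38 in EBC1 and 1.21 in SKMES1 for the other squamous lines. The limma test of NCIH226 against the other squamous lines gave FN1 an unadjusted p of 0.000265 and an adjusted p of 0.313. Without SKMES1 the limma adjusted p of FN1 was 0.0299.

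The FN1 promoter is shown because of that rise. It is taken from RefSeq (GRCh38.p14, chr2:215436019-215436318, minus strand), from 250 bases before the start to 50 after it. The capitals mark TGACGTCA, the cyclic AMP response element, which begins at position -183 from the start.
FN1: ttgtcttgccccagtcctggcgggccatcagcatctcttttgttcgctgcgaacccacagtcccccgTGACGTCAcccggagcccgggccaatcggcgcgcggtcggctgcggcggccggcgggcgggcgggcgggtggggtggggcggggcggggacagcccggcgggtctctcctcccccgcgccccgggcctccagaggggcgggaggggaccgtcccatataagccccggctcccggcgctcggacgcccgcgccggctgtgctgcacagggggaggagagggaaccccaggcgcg
TGACGTCA reads the same on both strands. It occurred in 1.85% of the 35116 promoter windows of the RefSeq table, and in 2.92% of windows of genes called higher, 2.63% of those called lower and 2.85% of those not called in NCIH226.

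MMP2 encodes gelatinase A, a protease that cuts denatured collagen and fibronectin. It averaged 3381 normalized counts in GSK3368712 cells and 759 in DMSO cells, and the authors' deposited table gives 2.16 (SE 0.11, DESeq2 adjusted p = 2.01e-81). An unnamed transcript overlaps MMP2 on the same strand, so its reads could be split. The partners that activate MMP2 at the membrane moved less: the authors' deposited table gives 0.25 (SE 0.071) for TIMP2, which was called higher, and -0.01 (SE 0.091) for MMP14, which was not called. TIMP1, an inhibitor of matrix proteases, averaged 2032 normalized counts in GSK3368712 cells and 800 in DMSO cells, and SERPINE2, an inhibitor of thrombin and urokinase, 4098 and 1493 in the same order of arms. Of 24 listed matrix remodelling enzymes and inhibitors 11 were higher (45.8%, against 15.5% of all genes) and 5 lower (20.8%, against 15.8%), with a median of 0.296. TIMP3, the inhibitor that stays bound to the matrix, was among the lower ones, at -0.45 (SE 0.084) in the authors' deposited table.

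Other matrix genes did not follow FN1 as a group. Of 34 listed matrix glycoproteins and proteoglycans 4 were higher (11.8%, against 15.5% of all genes), namely FN1, FBN1, POSTN and SDC1. In that list 11 were lower (32.4%, against 15.8%), and the median was -0.046. Of 15 listed collagens 2 were higher (13.3%) and 3 lower (20.0%). COL4A5, a basement membrane collagen, averaged 5043 normalized counts in GSK3368712 cells and 10470 in DMSO cells. COL12A1, a collagen that decorates fibrils, averaged 20993 in GSK3368712 cells and 37113 in DMSO cells. LAMA3, a chain of the laminin under epithelia, also fell, by 0.89 on the log2 scale in the authors' deposited table (SE 0.126). The higher collagens, COL3A1 and COL1A1, had large errors: the authors' deposited table gives 1.17 (SE 0.479, DESeq2 adjusted p = 0.0467) and 0.74 (SE 0.282, DESeq2 adjusted p = 0.0308).

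Integrins, the receptors for fibronectin, collagen and laminin, mostly rose. Of 12 listed members 9 were called higher, a larger share than the 15.5% of all genes, and 2 lower, with a median of 0.494, against list medians between -0.372 in EBC1 and 0.109 in SKMES1 in the other squamous lines. ITGA5 and ITGB1 form the classical fibronectin receptor. ITGA5 averaged 8519 normalized counts in GSK3368712 cells and 5229 in DMSO cells, and ITGB1 39015 in GSK3368712 cells and 32649 in DMSO cells. The collagen receptor chain ITGA2 averaged 1691 and 905 normalized counts in GSK3368712 and DMSO cells. ITGB8, whose pairing with the ITGAV chain activates latent TGF-beta, went the other way, with 162 normalized counts in GSK3368712 cells and 695 in DMSO cells. The authors' deposited table gives ITGB8 -2.10 (SE 0.207, DESeq2 adjusted p = 3.98e-22), and ITGAV was not called (-0.06, SE 0.086). The laminin receptor chain ITGB4 was the other lower member.

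Genes of a mesenchymal state were higher in 9 of 23 listed cases (39.1%, against 15.5% of all genes). The 1 lower was ACTA2, smooth muscle actin (4.35%, against 15.8%). Of the 6 listed fibroblast markers 4 were higher (66.7%, against 15.5% of all genes), namely COL3A1, COL1A1, POSTN and PDPN, and 0 lower. The means of all 6 summed to 107035 normalized counts in GSK3368712 cells and 61301 in DMSO cells. Most of that rise lay in the collagens with large errors, COL3A1 (58728 and 26064) and COL1A1 (29631.5 and 17729.3, in the same order of arms). THY1 and PDGFRB were not called. The part of the fibroblast markers in the matrix and mesenchymal values was not tested. ZEB2, a repressor of epithelial genes, averaged 925 normalized counts in GSK3368712 cells and 370 in DMSO cells. TPM1, an actin-binding tropomyosin, averaged 188539 and 99990 in GSK3368712 and DMSO cells. Junction genes did not move the opposite way as a group. Of 25 listed 8 were higher (32.0%, against 15.5% of all genes) and 4 lower (16.0%, against 15.8%). The plakoglobin gene JUP and the desmosome gene DSG2 were higher, at 0.83 (SE 0.1) and 0.42 (SE 0.088) in the authors' deposited table. CDH4, the gene of a cadherin of the nervous system and kidney, averaged 925 normalized counts in GSK3368712 cells and 3417 in DMSO cells, with a large error in the authors' deposited table (-1.89, SE 0.378, DESeq2 adjusted p = 7.89e-06).

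**Figure D3:**
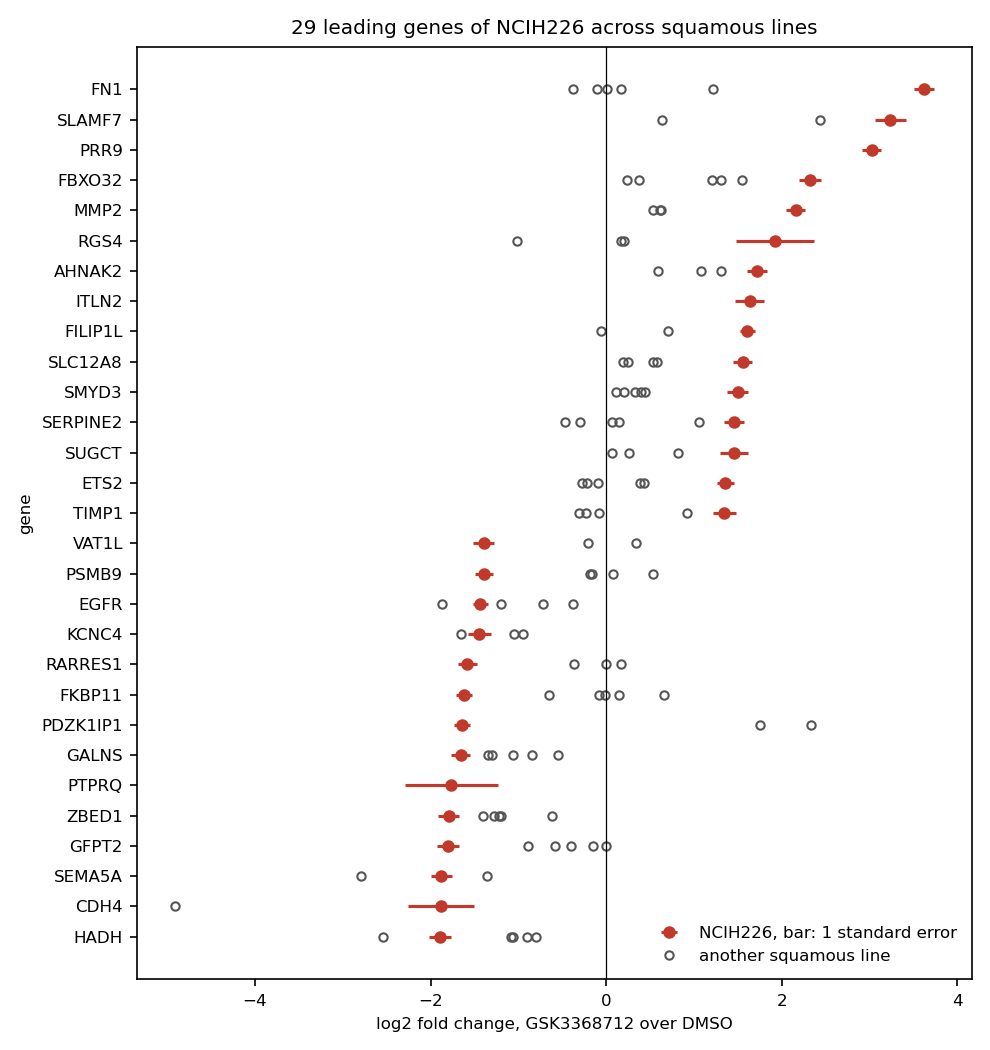
Log2 fold change of GSK3368712 over DMSO (horizontal) for the 15 largest positive and 14 of the 15 largest negative called genes of NCIH226 above its median expression (down the page). Red points are NCIH226 with bars of 1 SE; open circles are the other squamous lines that list the gene. FN1 in NCIH226 lies at 3.62, and PDZK1IP1 lies at -1.64 in NCIH226 with both other squamous lines above 0.

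Among the other leading genes, SLAMF7 codes for an adhesion receptor of lymphocytes that engages itself on other cells. It averaged 2582 normalized counts in GSK3368712 cells and 274 in DMSO cells (3.24, SE 0.178, DESeq2 adjusted p = 5.92e-71 in the authors' deposited table). It was called higher in each of the 5 other lines that list it, from 0.63 in SW900 to 3.19 in NCIH1563 in the authors' deposited table. PRR9 lies in the cluster of epidermal differentiation genes on chromosome 1 and is listed in no other line. Its mean was 4600 normalized counts in GSK3368712 cells and 566 in DMSO cells. FBXO32, the gene of a ubiquitin ligase subunit known from muscle wasting, averaged 4426 normalized counts in GSK3368712 cells and 886 in DMSO cells. RGS4, a brake on G-protein signalling, rose with a large error (1.92, SE 0.444, in the authors' deposited table). ITLN2, an intelectin, rose by 1.63 in the authors' deposited table and is listed in no other line; reads may be shared with its close relative ITLN1. ETS2 is a transcription factor downstream of RAS, SMYD3 a lysine methyltransferase, and FILIP1L, AHNAK2, SLC12A8 and SUGCT complete the 15, with fold changes between 1.36 for ETS2 and 1.72 for AHNAK2 in the authors' deposited table.

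The genes with the largest falls held several enzymes. HADH, which carries out the third step of beta-oxidation on medium and short fatty acids, averaged 635 normalized counts in GSK3368712 cells and 2359 in DMSO cells. GFPT2, the rate-limiting enzyme of the hexosamine pathway, averaged 1667 in GSK3368712 cells and 5805 in DMSO cells. GALNS, a lysosomal sulfatase, fell as well, at -1.66 (SE 0.108) in the authors' deposited table, and was called lower in all 5 other squamous lines. SEMA5A, an axon guidance cue with thrombospondin repeats, averaged 1752 normalized counts in GSK3368712 cells and 6443 in DMSO cells, and its receptor gene PLXNB3 was not called (-0.47, SE 0.205, DESeq2 adjusted p = 0.0658 in the authors' deposited table). RARRES1, a retinoid-induced gene, averaged 4682 and 14027 normalized counts in GSK3368712 and DMSO cells. FKBP11, a prolyl isomerase of the endoplasmic reticulum, and KCNC4, a potassium channel, fell by 1.62 and 1.45 on the log2 scale in the authors' deposited table. PDZK1IP1 was lower in NCIH226 at -1.64 and higher at 1.75 in EBC1 and 2.33 in SKMES1 in the authors' deposited table. ZBED1 overlaps DHRSX on the same strand, and PTPRQ had an SE of 0.533, so both are less certain.

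The cell cycle genes fell. All 56 mitosis and G2/M genes had a fold change below 0, and 45 were called lower (80.4%, against 15.8% of all genes) and 0 higher, with a median of -0.382. HMMR, which holds the spindle pole together, averaged 2211 normalized counts in GSK3368712 cells and 4227 in DMSO cells. CENPA, the histone of the centromere, averaged 676 in GSK3368712 cells and 1162 in DMSO cells, and NCAPG, a condensin subunit, 3462 in GSK3368712 cells and 6194 in DMSO cells. MKI67, the proliferation antigen, fell less: the authors' deposited table gives -0.49 (SE 0.081, DESeq2 adjusted p = 4.06e-08). The list medians of the other squamous lines lay between -0.44 in EBC1 and -0.186 in NCIH520, so all 6 squamous lines had a median below 0.

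The promoters of 5 lower mitosis genes are shown because many promoters of this class carry the cell cycle homology region, the element bound by the MuvB complexes that time mitotic transcription. They come from RefSeq (GRCh38.p14) and run from 250 bases before the start to 50 after it. The 5 genes were picked without a fixed rule, so they do not stand for the list. The capitals mark TTTGAA, or TTCAAA where it lies on the other strand.
HMMR: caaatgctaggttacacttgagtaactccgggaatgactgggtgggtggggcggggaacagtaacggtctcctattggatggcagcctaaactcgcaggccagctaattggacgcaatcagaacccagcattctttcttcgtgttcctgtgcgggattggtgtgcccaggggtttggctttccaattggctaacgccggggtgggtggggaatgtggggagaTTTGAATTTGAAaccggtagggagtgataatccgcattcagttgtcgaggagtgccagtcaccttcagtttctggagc
CENPA: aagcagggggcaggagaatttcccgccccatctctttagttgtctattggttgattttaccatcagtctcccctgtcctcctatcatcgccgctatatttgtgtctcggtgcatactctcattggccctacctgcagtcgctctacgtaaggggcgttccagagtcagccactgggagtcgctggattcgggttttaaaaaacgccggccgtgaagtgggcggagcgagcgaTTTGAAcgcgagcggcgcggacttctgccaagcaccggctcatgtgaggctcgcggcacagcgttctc
NCAPG: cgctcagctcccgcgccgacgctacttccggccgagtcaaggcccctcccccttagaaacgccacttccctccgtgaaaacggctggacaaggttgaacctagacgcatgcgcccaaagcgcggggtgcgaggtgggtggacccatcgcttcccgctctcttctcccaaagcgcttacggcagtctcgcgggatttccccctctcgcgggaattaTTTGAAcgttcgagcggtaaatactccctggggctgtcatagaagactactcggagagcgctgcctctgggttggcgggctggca
PRC1: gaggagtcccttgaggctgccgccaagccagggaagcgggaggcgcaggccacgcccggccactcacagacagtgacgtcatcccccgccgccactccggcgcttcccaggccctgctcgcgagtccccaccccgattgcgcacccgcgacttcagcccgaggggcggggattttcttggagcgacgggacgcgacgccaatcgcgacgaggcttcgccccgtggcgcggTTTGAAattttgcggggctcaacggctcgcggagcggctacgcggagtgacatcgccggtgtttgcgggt
MKI67: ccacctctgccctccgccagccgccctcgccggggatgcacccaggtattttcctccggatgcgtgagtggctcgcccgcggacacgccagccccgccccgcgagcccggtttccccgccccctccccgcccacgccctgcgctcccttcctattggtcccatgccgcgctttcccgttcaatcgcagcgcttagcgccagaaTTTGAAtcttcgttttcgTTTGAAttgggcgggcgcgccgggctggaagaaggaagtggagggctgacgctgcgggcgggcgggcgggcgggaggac
HMMR lies at chr5:163460382-163460681, CENPA at chr2:26785806-26786105 and NCAPG at chr4:17810729-17811028 on the plus strand, and PRC1 at chr15:90994486-90994785 and MKI67 at chr10:128126374-128126673 on the minus strand. In all 5 a match lay within the last 50 bases before the start: it began at position -22 in HMMR, -18 in CENPA, -35 in NCAPG, -20 in PRC1 and -29 in MKI67. HMMR and MKI67 held a further match each, at -28 and -47. TTTGAA or TTCAAA occurred in 63.3% of 60 windows of the listed mitosis genes (48 genes matched), in 1.75% of 57 windows of the DNA replication genes and in 15.2% of all 35116 windows. Among all genes of NCIH226 the share was 12.9% of windows for lower genes, 9.82% for higher genes and 9.78% for genes not called. A match is a description of these letters and not a bound site.

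DNA replication and G1/S genes, whose promoters largely lack that element, had a median of -0.378. They were lower in 35 of 53 listed cases (66.0%, against 15.8% of all genes) and higher in 0. RRM2, a subunit of the enzyme that makes deoxynucleotides, averaged 4407 normalized counts in GSK3368712 cells and 8716 in DMSO cells. PRIM1, the catalytic primase subunit, averaged 714 in GSK3368712 cells and 1431 in DMSO cells. CLSPN, a mediator of the replication checkpoint, and UHRF1, which reads hemimethylated DNA, were lower as well (-0.96, SE 0.101, and -0.46, SE 0.097, in the authors' deposited table). Homologous recombination and Fanconi genes were lower in 20 of 41 cases (48.8%, against 15.8% of all genes) and higher in 2 (4.88%, against 15.5%). BRCA2, a mediator of strand exchange, averaged 604 normalized counts in GSK3368712 cells and 1238 in DMSO cells. RBBP8 and ATR were the higher members, at 0.62 (SE 0.091) and 0.45 (SE 0.102) in the authors' deposited table.

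CDKN1A, an inhibitor of cyclin-dependent kinases, was higher by 0.27 (SE 0.085, DESeq2 adjusted p = 0.00766) and DDB2, a sensor of ultraviolet DNA damage, lower at -1.13 (SE 0.104) in the authors' deposited table. CDKN2B, the p15 inhibitor next to CDKN2A, averaged 5540 normalized counts in GSK3368712 cells and 3308 in DMSO cells. CCND1, the cyclin of early G1, was lower at -0.49 (SE 0.088) in the authors' deposited table. In the BCL2 family 1 of 14 listed genes was higher (BCL2L1, 7.14%) and 1 lower (BCL2L13, 7.14%), against 15.5% and 15.8% of all genes.

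EGFR fell. It averaged 10526 normalized counts in GSK3368712 cells and 28420 in DMSO cells, at -1.43 (SE 0.083, DESeq2 adjusted p = 2.9e-63) in the authors' deposited table. It was also called lower in each of the 4 other squamous lines that list it, from -0.38 in SW900 to -1.87 in LK2 in the authors' deposited table. Its ligands did not fall with it in NCIH226: TGFA was higher at 0.55 (SE 0.199, DESeq2 adjusted p = 0.0215), EPGN higher at 2.02 (SE 0.555, DESeq2 adjusted p = 0.00168), and AREG and HBEGF were not called in the authors' deposited table. EREG and BTC were not listed. Of 24 listed receptor tyrosine kinases 6 were higher and 5 lower. ERBB3, a partner of EGFR with little kinase activity, averaged 4714 normalized counts in GSK3368712 cells and 2568 in DMSO cells, and MST1R, the receptor for macrophage stimulating protein, 1232 in GSK3368712 cells and 2417 in DMSO cells.

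Feedback genes of the MAPK pathway rose in the same cells. Of 23 listed 13 were higher (56.5%, against 15.5% of all genes) and 1 lower, with a median of 0.526. The medians of the other squamous lines lay between -0.601 in EBC1 and 0.226 in NCIH520. The ERK phosphatase gene DUSP4 averaged 709 normalized counts in GSK3368712 cells and 236 in DMSO cells, and the ETS factor ETV4 508 in GSK3368712 cells and 151 in DMSO cells. DUSP6 and SPRY4, which damp ERK and RAS signals, were higher at 1.15 (SE 0.409) and 0.56 (SE 0.183) in the authors' deposited table. JUN, an AP-1 factor, averaged 10133 normalized counts in GSK3368712 cells and 5502 in DMSO cells.

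The YAP and TEAD list, which holds Hippo pathway members and targets, had a median of 0.069. Of 35 listed genes 15 were higher (42.9%, against 15.5% of all genes) and 3 lower (8.57%, against 15.8%). CTGF, a matricellular protein and textbook YAP target, averaged 6058 normalized counts in GSK3368712 cells and 3071 in DMSO cells. CYR61, its relative, averaged 36436 in GSK3368712 cells and 23092 in DMSO cells. YAP1 itself was higher by 0.25 (SE 0.084) and TEAD1 lower at -0.22 (SE 0.076) in the authors' deposited table. CTGF was not above 0 in any of the 4 other squamous lines that list it, with values between -0.51 and -0.01 in the authors' deposited table. The CTGF promoter is shown because its GGAATG elements are the textbook TEAD sites (RefSeq entry CCN2, GRCh38.p14, chr6:131951323-131951622, minus strand); capitals mark GGAATG, or CATTCC where it lies on the other strand.
CTGF: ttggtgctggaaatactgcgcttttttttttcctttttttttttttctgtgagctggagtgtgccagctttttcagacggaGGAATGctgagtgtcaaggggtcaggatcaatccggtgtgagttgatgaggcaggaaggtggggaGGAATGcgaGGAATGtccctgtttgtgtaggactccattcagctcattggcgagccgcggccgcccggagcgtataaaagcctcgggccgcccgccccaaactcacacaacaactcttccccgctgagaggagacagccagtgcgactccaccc
The 3 matches begin at positions -169, -104 and -95 from the start. GGAATG or CATTCC occurred in 25.6% of 39 windows of the listed YAP and TEAD genes, in 16.7% of 18 windows of those called higher, and in 14.0% of all windows. The 3 motifs searched here do not contain each other.

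In TGF-beta and BMP signalling 13 of 34 listed genes were higher (38.2%, against 15.5% of all genes), with a median of 0.143. SMAD3 and SMAD6 were the 2 lower (5.88%, against 15.8%). INHBA, the activin A subunit, averaged 26321 normalized counts in GSK3368712 cells and 10876 in DMSO cells. ID3 and ID4, inhibitors of basic helix-loop-helix factors, and SMURF2, a ubiquitin ligase of the pathway, were higher at 0.89 (SE 0.127), 0.63 (SE 0.104) and 0.91 (SE 0.081) in the authors' deposited table. WNT genes had 5 of 29 higher (17.2%) and 6 lower (20.7%), near the 15.5% and 15.8% of all genes. The ligand gene WNT10A averaged 962 normalized counts in GSK3368712 cells and 2351 in DMSO cells. Notch genes had 3 of 19 higher (15.8%) and 2 lower (10.5%). In the cyclic AMP list 5 of 24 were higher (20.8%) and 4 lower (16.7%). Among the lower were the adenylyl cyclase ADCY3 and the kinase anchor AKAP12, at -1.21 (SE 0.119) and -1.12 (SE 0.108) in the authors' deposited table.

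**Figure D4:**
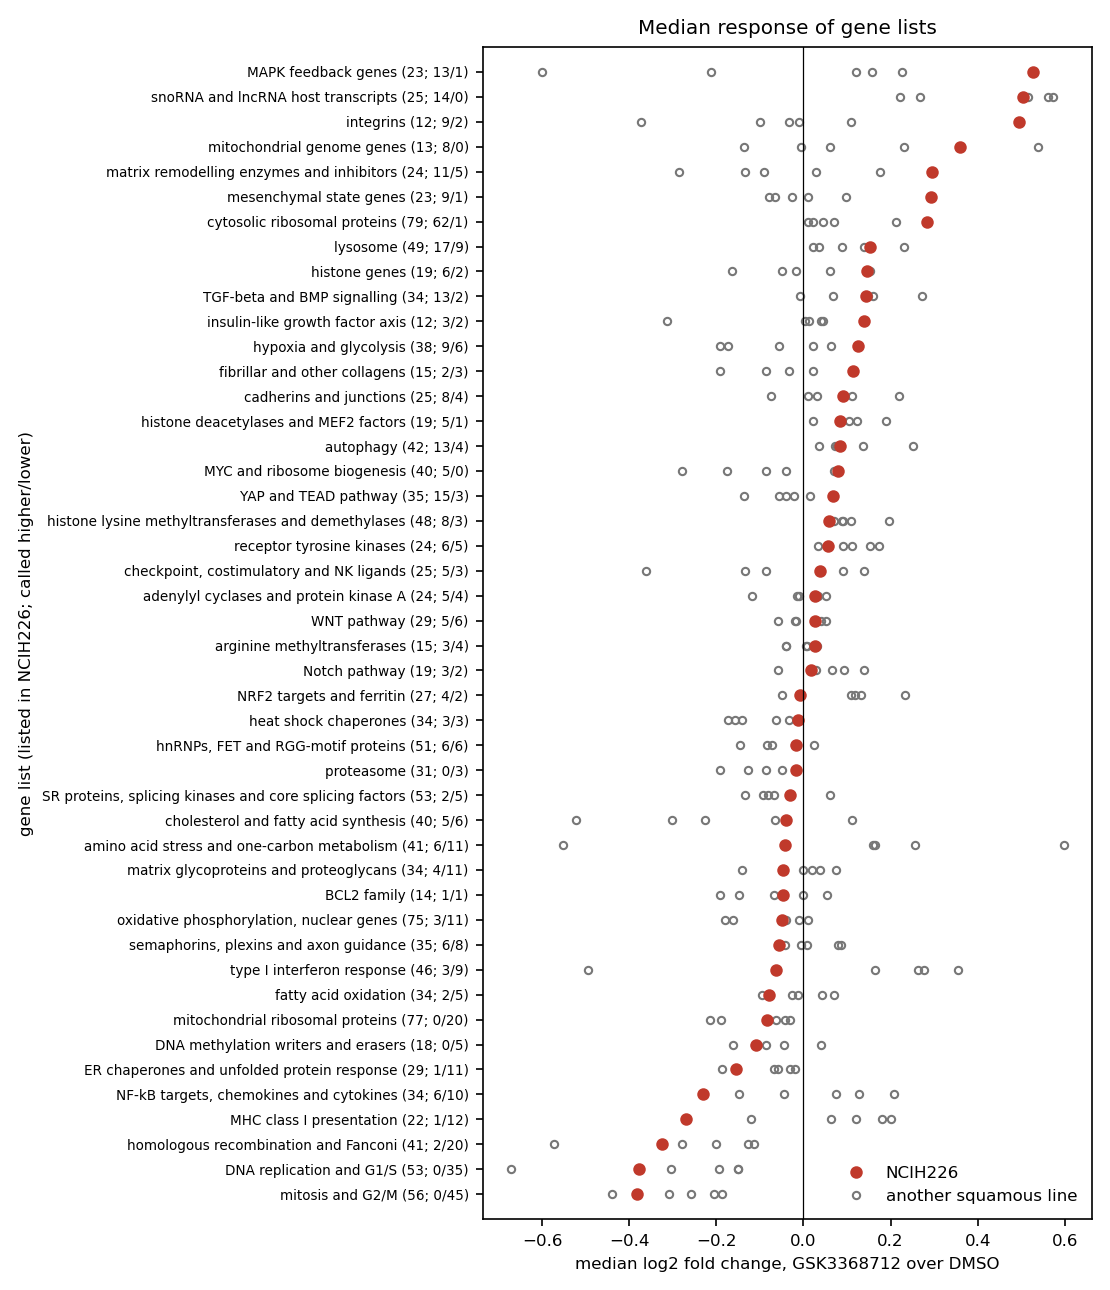
Median log2 fold change of GSK3368712 over DMSO (horizontal) for 46 gene lists (down the page), as red points for NCIH226 and open circles for each other squamous line with at least 3 listed members. Labels give the members listed in NCIH226 and those called higher and lower; MAPK feedback genes lie highest at 0.526 and mitosis genes lowest at -0.382.

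Antigen presentation fell. Of 22 listed genes of MHC class I presentation 12 were lower (54.5%, against 15.8% of all genes) and 1 higher, with a median of -0.27, against medians between -0.12 in SW900 and 0.2 in SKMES1 in the other squamous lines. PSMB9, a catalytic subunit of the immunoproteasome, averaged 1672 normalized counts in GSK3368712 cells and 4397 in DMSO cells (-1.40, SE 0.102, DESeq2 adjusted p = 1.23e-39 in the authors' deposited table). PSMB9 overlaps PSMB8 and its antisense transcript, so its reads could be split, and PSMB8 was lower at -0.33 (SE 0.089) in the authors' deposited table. ERAP1, which trims peptides, averaged 2416 and 4546 normalized counts in GSK3368712 and DMSO cells. The loading factor TAPBP averaged 6811 in GSK3368712 cells and 12158 in DMSO cells. TAP1 and TAP2, the peptide pump, were lower too, at -0.45 (SE 0.084) and -0.55 (SE 0.093) in the authors' deposited table. Among the heavy chains HLA-F was lower at -0.44 (SE 0.177) and HLA-B lower at -0.26 (SE 0.091), HLA-C was not called, and HLA-E was higher at 0.42 (SE 0.084) in the authors' deposited table, with reads that these paralogs may share. B2M, the light chain, was not called (-0.17, SE 0.076, DESeq2 adjusted p = 0.0729 in the authors' deposited table).

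Type I interferon genes were lower in 9 of 46 cases (19.6%, near the 15.8% of all genes) and higher in 3. OAS3, a sensor of double-stranded RNA, averaged 2481 normalized counts in GSK3368712 cells and 5877 in DMSO cells. IFITM2 was the clearest higher member, at 0.68 (SE 0.108) in the authors' deposited table. NF-kB targets, chemokines and cytokines had 6 of 34 higher (17.6%, near the 15.5% of all genes) and 10 lower (29.4%, against 15.8%). The interleukin-1 genes rose: IL1B averaged 651 normalized counts in GSK3368712 cells and 290 in DMSO cells, and IL1A 165 in GSK3368712 cells and 58.2 in DMSO cells. Their receptor gene IL1R1 fell, at -1.32 in the authors' deposited table, with a large error (SE 0.349). The chemokine gene CCL2 averaged 1452 and 2933 normalized counts in GSK3368712 and DMSO cells, and LIFR, the receptor of leukaemia inhibitory factor, 7437 in GSK3368712 cells and 14446 in DMSO cells.

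Of 25 listed checkpoint, costimulatory and NK ligand genes 5 were higher and 3 lower. TNFSF18, the ligand of the costimulatory receptor GITR, averaged 334 normalized counts in GSK3368712 cells and 42.8 in DMSO cells (2.96, SE 0.321, DESeq2 adjusted p = 2.55e-18 in the authors' deposited table). It is listed in no other line, and its receptor gene TNFRSF18 was not listed. CD274, the PD-L1 gene, averaged 433 and 278 normalized counts in GSK3368712 and DMSO cells, with an adjusted p at the threshold in the authors' deposited table (0.64, SE 0.265, DESeq2 adjusted p = 0.0497). Centring on the median of all genes moved that adjusted p to 0.051.

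The mesothelial markers moved both ways, with more called lower than higher. Of 12 listed 6 were lower, a larger share than the 15.8% of all genes. The 3 higher were also a larger share than the 15.5% of all genes. Fold changes were above 0 in 6 and below 0 in 6, with a median of -0.077. LRRN4 averaged 2259 normalized counts in GSK3368712 cells and 5539 in DMSO cells, CALB2 39076 and 60180, MSLN 4790 and 7286, and WT1 3694 and 5221, in the same order of arms. In the authors' deposited table LRRN4 stood at -1.29 (SE 0.091, DESeq2 adjusted p = 5.78e-43) and MSLN at -0.61 (SE 0.084, DESeq2 adjusted p = 1.76e-11). MUC16, the mucin that binds mesothelin, averaged 320 normalized counts in GSK3368712 cells and 1977 in DMSO cells. The authors' deposited table gives MUC16 -2.63 (SE 0.16) in NCIH226 and 0.71 in EBC1, the other squamous line that lists it. ITLN1, HEG1 and PDPN were the higher markers, ITLN1 with a large error (1.31, SE 0.486, DESeq2 adjusted p = 0.0266 in the authors' deposited table). Of the 5 listed squamous markers TRIM29, PERP and DSC3 were higher (60.0%, against 15.5% of all genes) and 0 lower.

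Cytosolic ribosomal protein genes rose nearly throughout. Of 79 listed 78 had a fold change above 0, 62 were called higher (78.5%) and 1 lower, with a median of 0.284; the medians of the other squamous lines lay between 0.011 in SKMES1 and 0.213 in LK2. RPL10 averaged 113867 normalized counts in GSK3368712 cells and 75490 in DMSO cells. RPL37 was the lower member, at -0.48 (SE 0.071) in the authors' deposited table. Reads of these genes may be shared with processed pseudogenes, of which 27 of 225 listed were higher and 6 lower. Of those pseudogenes 14.7% were called, fewer than the 31.3% of all genes. The host transcripts of small nucleolar RNAs carry in their exons the same terminal oligopyrimidine start as ribosomal protein genes. These host transcripts were higher in 14 of 25 cases (56.0%, against 15.5% of all genes) and lower in 0, with a median of 0.504. SNHG8 averaged 5524 normalized counts in GSK3368712 cells and 2646 in DMSO cells. Ribosome biogenesis genes changed less, with 5 of 40 higher (12.5%, against 15.5% of all genes) and 0 lower.

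**Figure D5:**
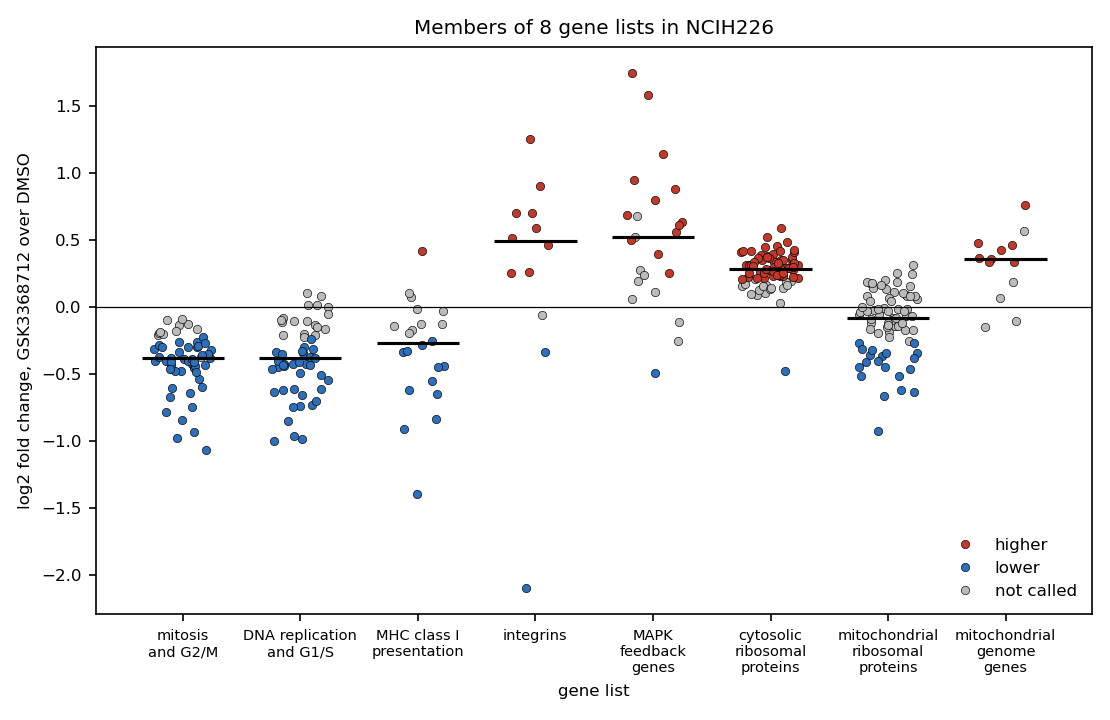
Log2 fold change of GSK3368712 over DMSO (vertical) of each listed member of 8 gene lists in NCIH226 (across; points are spread sideways at random). Red members were called higher, blue lower and grey neither, and black lines are the medians, at -0.382 for mitosis and 0.284 for cytosolic ribosomal proteins.

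RNA-binding proteins include the main substrates of type I enzymes. Of 51 listed hnRNPs, FET and RGG-motif proteins 6 were higher and 6 lower, 23.5% called against 31.3% of all genes. HNRNPA3 averaged 12070 normalized counts in GSK3368712 cells and 21161 in DMSO cells. HNRNPA1 and the cold-inducible RBM3 were higher, at 0.43 (SE 0.07) and 0.79 (SE 0.094) in the authors' deposited table. SR proteins and core splicing factors had 2 of 53 higher and 5 lower (13.2% called). The arginine methyltransferase list had 3 of 15 listed genes higher (20.0%, against 15.5% of all genes) and 4 lower (26.7%, against 15.8%). PRMT1 did not pass the test, with means of 9180 normalized counts in GSK3368712 cells and 9016 in DMSO cells; transcript levels do not measure whether the enzyme was inhibited. CARM1 was higher at 0.34 (SE 0.098), PRMT3 lower at -0.37 (SE 0.113) and PRMT9 lower at -0.56 (SE 0.178) in the authors' deposited table. PRMT2 and PRMT6 were not called.

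Among chromatin genes HDAC5 and HDAC4, class IIa deacetylases that bind MEF2 factors, moved in opposite directions. HDAC5 averaged 1219 normalized counts in GSK3368712 cells and 416 in DMSO cells, and HDAC4 494 in GSK3368712 cells and 1071 in DMSO cells. In each of the 5 other squamous lines HDAC5 was above 0 (0.49 to 2.00) and HDAC4 below 0 (-1.62 to -0.23) in the authors' deposited table. KDM5B, a demethylase of histone H3 lysine 4, averaged 3055 and 1260 normalized counts in GSK3368712 and DMSO cells. DNA methylation genes had 5 of 18 lower (27.8%, against 15.8% of all genes) and 0 higher. DNMT1, the maintenance methyltransferase, averaged 5794 normalized counts in GSK3368712 cells and 8745 in DMSO cells. Of 19 listed histone genes 6 were higher (31.6%, against 15.5% of all genes) and 2 lower (10.5%, against 15.8%). Poly(A) libraries catch replication histones poorly, and histone paralogs share reads.

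The 13 genes of the mitochondrial genome were higher in 8 cases (61.5%, against 15.5% of all genes) and lower in 0 (median 0.359), with MT-ND5, a subunit of complex I, at 175176 normalized counts in GSK3368712 cells and 103226 in DMSO cells. Mitochondrial ribosomal proteins, made from nuclear genes, were lower in 20 of 77 cases (26.0%, against 15.8% of all genes) and higher in 0. Nuclear oxidative phosphorylation genes were lower in 11 of 75 cases and higher in 3, and fatty acid oxidation genes lower in 5 of 34 and higher in 2; both have 14.7% lower, close to the 15.8% of all genes. Besides HADH, the lower fatty acid oxidation genes were CPT2, the inner membrane acyltransferase (469 normalized counts in GSK3368712 cells and 1200 in DMSO cells), ECI1, an isomerase for unsaturated chains (1632 and 3404 in the same order of arms), ETFB and ACAD10. HADHA and HADHB, the trifunctional enzyme for long chains, were not called, and PPARA, the factor that induces the pathway, was higher at 1.06 (SE 0.178) in the authors' deposited table. FADS1, a desaturase of polyunsaturated fatty acids, averaged 10075 normalized counts in GSK3368712 cells and 26240 in DMSO cells.

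Chaperones of the endoplasmic reticulum were listed together with genes of the unfolded protein response. Of these 11 of 29 were lower (37.9%, against 15.8% of all genes) and 1 higher (3.45%, against 15.5%). XBP1 and ATF6 of that response were among the lower genes, and HSPA5, CANX and HYOU1 among the 17 not called. HSP90B1 averaged 55866 normalized counts in GSK3368712 cells and 75057 in DMSO cells, and PDIA4, a disulfide isomerase, 13359 in GSK3368712 cells and 20775 in DMSO cells. Lysosomal genes were higher in 17 of 49 cases (34.7%, against 15.5% of all genes) and lower in 9 (18.4%, against 15.8%). Autophagy genes were higher in 13 of 42 (31.0%) and lower in 4 (9.52%). The cholesterol carrier gene NPC2 averaged 10073 normalized counts in GSK3368712 cells and 6116 in DMSO cells, and the autophagy receptor SQSTM1 108971 and 78564 in the same order of arms. Amino acid stress and one-carbon genes had 6 of 41 higher (14.6%, near the 15.5% of all genes) and 11 lower (26.8%, against 15.8%). Hypoxia and glycolysis genes had 9 of 38 higher (23.7%) and 6 lower (15.8%). CA9, a carbonic anhydrase induced by hypoxia, averaged 781 normalized counts in GSK3368712 cells and 1617 in DMSO cells. Proteasome genes were nearly still, with 0 of 31 higher and 3 lower (9.68%, against 15.8% of all genes).

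Of the long non-coding RNAs, 65 of 315 listed lincRNAs were higher and 42 lower (34.0% called) and 36 of 326 antisense genes were higher and 45 lower (24.8% called), against 1820 higher and 1914 lower of 11507 protein-coding genes (32.4% called). NORAD, which sequesters Pumilio proteins, averaged 16585 normalized counts in GSK3368712 cells and 9672 in DMSO cells. LRRC75A-AS1, a small nucleolar RNA host, averaged 69082 in GSK3368712 cells and 38034 in DMSO cells. LINC00963 fell, with 3763 normalized counts in GSK3368712 cells and 7259 in DMSO cells.

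Across genes, the fold changes of NCIH226 had a Pearson correlation of 0.46 with SW900, the highest of the 9 other lines, and of 0.30 with PC9, the lowest, over 12143 and 11119 shared genes. Genes are not independent and no p is given. Of the 1950 genes called in both NCIH226 and SW900, 1755 (90.0%) went the same way, and those genes make up 47.3% of the calls of NCIH226 and 40.2% of those of SW900 among shared genes. With NCIH1563 the share that went the same way was 76.8% of 2034. Of genes with a symbol, 362 of 1918 higher genes and 357 of 2002 lower genes were called the same way in no other line, and 279 and 418 were called the same way in at least 5 other lines. NCIH1975, NCIH522 and PC9 had calls in 7.91%, 1.66% and 4.48% of their listed genes, which limits such counts.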

How the data were processed

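Poly(A) RNA of 10 lung cancer lines was sequenced in 2 libraries for each arm, as 151-base paired reads from a stranded kit, per the labels' protocols. The submitters' processing notes name FastQC, Salmon 0.12.0 and DESeq2 with GRCh38, and genes below an FPKM of 1 were left out of each comparison, per the labels. Whether the counting used strand is not given in the sources used here. The authors deposited a single table of their DESeq2 results per line. Its log2 fold changes and their standard errors, its p-values adjusted per line by the authors, its Wald score (the fold change over its error) and its mark of changed genes were used as deposited. The deposited signal is the authors' mean of normalized counts over the 4 libraries of a line.

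Computed here were arm means from that signal and the fold change, counts and medians over gene lists, and CPM of each line's listed total. In all 13112 entries the mark was set exactly where the adjusted p did not exceed 0.05 and the fold change reached 1 on the log2 scale in either direction. limma 3.58.1 (R 4.3.3) tested NCIH226 minus the other squamous lines on the deposited fold changes; a single line is assumed there to vary like the 5 others. Benjamini-Hochberg adjustment ran over all genes tested. Gene positions came from GENCODE release 29, which matched 13099 of the 13112 IDs, and promoters from RefSeq. A few genes that the naming rule picks are not reported here. Tables and figures were made with Python 3.11.15. The scripts were tested on simulated data.

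Genes were named by rule: the 15 largest rises and falls above median expression, up to 5 members per list and direction, and those called opposite to every other squamous line; partners such as ligands, receptors and overlapping genes were added after their values were seen. The members and lists were chosen with earlier results of these data known, so the lists give no independent support. Alternatives concerned the adjustment, the threshold, the expression filter, centring, the null hypothesis and the lines compared.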

Additional observations from a re-analysis of the deposited data

Results flagged for a closer look

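Among the squamous lines, genes with the largest changes in NCIH226 and list medians were screened for a line far from the rest. A gene needed values in at least 4 squamous lines, and a list at least 3 listed members in each squamous line. In all 21 genes and 48 lists were screened. For the lists chance alone raises about 1 in 20; the genes were picked for their large changes in NCIH226, which favours NCIH226 standing apart, so no such rate applies to them. MMP2 stood at 2.156 on the log2 scale in NCIH226, with the other 3 squamous lines that list it between 0.533 and 0.623. SLC12A8 stood at 1.554 in NCIH226, against 0.195 to 0.581 in the 4 others that list it. SMYD3, a lysine methyltransferase, stood at 1.499 in NCIH226, against 0.112 to 0.441 in the 5 others. The median of the insulin-like growth factor axis lay at -0.314 in NCIH520, a line outside the comparison, with NCIH226 and the other 4 lines between 0.003 and 0.14.

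Another 15 genes were called in NCIH226 in the direction opposite to every other squamous line that lists them, with at least 3 such lines, and 8 of them are named here. Lower in NCIH226 and higher elsewhere in the authors' deposited table were MUC1, a membrane mucin (-0.703 in NCIH226, 0.699 to 2.024 elsewhere), DDIT4, a stress-induced inhibitor of mTORC1 (-0.614 in NCIH226, 0.488 to 2.911 elsewhere), and ADM2, an adrenomedullin-like peptide (-0.862 in NCIH226, 0.636 to 2.949 elsewhere). TGM1, a crosslinking enzyme of the epidermis, stood at -0.748 in NCIH226 and at 0.839 to 1.602 elsewhere, CSF1, the macrophage growth factor, at -0.483 in NCIH226 and at 0.216 to 1.328 elsewhere, and NRBP2 at -0.469 in NCIH226 and at 0.38 to 0.744 elsewhere. Higher in NCIH226 and lower elsewhere were PDLIM3, an actin-associated protein (1.539 in NCIH226, -1.127 to -0.399 elsewhere), and RAC2, a small GTPase (1.159 in NCIH226, -0.673 to -0.221 elsewhere). A difference from the other squamous lines was tested by limma only for the 10611 genes listed in all 6 lines, of which it called 0; for genes missing in a line it was not tested.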

How the results depend on the processing

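Of the 4099 calls in NCIH226, 4098 remained when the adjustment was recomputed from the deposited score, 2920 at an adjusted p of 0.01, 3358 in the top 75% of genes by mean count (3430 called there) and 4082 after centring on the median. A null hypothesis of an absolute log2 fold change of at most 0.5 left 402 calls, 188 higher and 214 lower, and 71 of the 622 called list members. A t distribution with 2 degrees of freedom left 0 calls, 0 higher and 0 lower. Under that null hypothesis of 0.5, 303 of 428 named genes lost their call, and 125 stayed on their side of the threshold. Recomputed adjustment changed no named gene, and centring moved 1 (CD274). These settings could not test the direction of a named gene, because they kept the fold changes or shifted them only by the median of 0.002. In the top 75% of genes the list medians of glandular lung markers (0.668, against -0.017 in all listed genes), histone genes (-0.079, against 0.145) and the Notch pathway (-0.001, against 0.017) changed sign, and that of semaphorins moved to -0.122; the set of genes differs there by construction. For the difference from the other squamous lines limma called 0 genes with all 9 other lines, without moderation, with robust variance, centred, scaled or filtered, and a Wald test from the authors' errors called 1702. Leaving out each other squamous line gave 0 to 2 calls; the 2 arose without SKMES1 and were FN1 and an unnamed gene. No paired analysis was possible because the deposited table holds no values per library, and for the same reason leaving out each library was not run. The number of libraries limits the precision: the median error of a log2 fold change was 0.13, and 33 of 6556 genes above median expression had an error over 0.3.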

Other observations

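Below the line's median expression some changes were larger than those above it. The genes here were chosen after their values were seen, and all values are from the authors' deposited table or computed from it. CYP19A1, the aromatase that makes oestrogens, averaged 213.4 normalized counts in GSK3368712 cells and 6.2 in DMSO cells (5.10, SE 0.548). AMTN, an enamel protein, averaged 254.5 in GSK3368712 cells and 14.6 in DMSO cells, and CD36, a fatty acid and thrombospondin receptor, 345.0 in GSK3368712 cells and 40.9 in DMSO cells. IVL encodes involucrin of the cornified envelope and, like PRR9, lies on chromosome 1. It averaged 1304.6 normalized counts in GSK3368712 cells and 203.4 in DMSO cells, with a large error (2.68, SE 0.599).

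Among the falls, SAA1, a serum amyloid A gene, averaged 467.1 normalized counts in GSK3368712 cells and 2335.4 in DMSO cells, and SAA2, which may share reads with it, 232.3 in GSK3368712 cells and 1087.0 in DMSO cells. SAA1 stood at -2.32 in NCIH226 and at 2.46 in SW900, and SAA2 at -2.23 in NCIH226 and at 2.18 in SW900. LCN2, an iron-sequestering lipocalin, averaged 13.9 normalized counts in GSK3368712 cells and 163.2 in DMSO cells. SMOC2, a matricellular protein, averaged 23.2 in GSK3368712 cells and 359.7 in DMSO cells, and TFPI2, an inhibitor of matrix-degrading serine proteases, 85.0 in GSK3368712 cells and 561.4 in DMSO cells. The differences between lines were not tested for these genes, which are not listed in all squamous lines.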
